A study of Homo sapiens with 8 samples.

Results

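OCAB binding was mapped by chromatin immunoprecipitation followed by sequencing in the pre-B leukaemia line 697, an established line of human cells, and was measured against input DNA. The OCAB peaks described here are all 4440 rows of the OCAB peak list, out of 159806 peaks in the 7 lists of the series, and no row was left out. Each of the 7 antibodies (OCAB, OCT2, MTA2, HDAC2, Mi2, IKAROS and AIOLOS) had 1 library, and 1 input library of genomic DNA was made without an antibody. That it served as the control of the OCAB list is not stated in the labels. The cells carried no treatment in the labels and grew in medium with 10% fetal bovine serum. The OCAB library was made with the antibody sc-955 of Santa Cruz. Libraries went through 15 PCR cycles and a selection of fragments near 250 bp, adapters included. Reads carried no molecular identifier and there were no replicates, so every interval covers counting error only and no p-value was computed. Whether a second OCAB library would give the same peaks was not tested.

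OCAB, also called OBF-1 or Bob1 and encoded by POU2AF1, is a coactivator of lymphocytes that reaches DNA mainly through the POU domains of OCT1 and OCT2 on octamer sites. It is known for its part in immunoglobulin gene expression and in the formation of germinal centres. The other proteins profiled were OCT2, the octamer-binding factor of B cells; MTA2, HDAC2 and Mi2, subunits of the NuRD complex, which joins nucleosome remodelling to histone deacetylation; and IKAROS and AIOLOS, related zinc-finger factors of lymphocytes. The title of the series asks how MTA2 and NuRD act together with OCAB in B-cell development.

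Most OCAB peaks held few tags each, with a short tail of very high peaks. The median peak held 28 tags (95% binomial interval of the median 27 to 28), which is a height of 16.0 tags per 10 M tags of the library (15.4 to 16.0). The lowest peak had a height of 6.27, the 25th percentile was 12.0, the 75th percentile was 24.5, the 90th percentile was 44.5 and the highest peak reached 355. Of the 4440 peaks, 2928 (65.9%) were lower than 20, 101 reached 100 and 14 reached 200. Every peak was 266 bp wide, 1 width for the whole list, so how wide the binding was at each site was not measured. All peaks together held 185328 tags, or 1.06% of a library of 17.6 M tags. The signal was uneven among them: the highest decile of peaks held 34.7% of the peak tags, against 3.17% in the lowest decile, and the 10 highest peaks held 2.55%.

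The 10 highest OCAB peaks were well above input. Of these, 9 lay on peaks of other lists, against 89.0% of the highest decile and 72.7% of all OCAB peaks. The highest, at chr19:44123994-44124260 (hg19, as for all positions), had a height of 355.0 from 623 OCAB tags against 7 input tags. That is 108-fold over input after scaling for depth, with an exact binomial interval of 52.0 to 269. The next were chr17:62009620-62009886 with a height of 337.3 from 592 tags against 12 input tags, and chr12:31479057-31479323 with a height of 335.6 from 589 tags against 7 input tags. Folds over input among these 10 peaks ran from 38.5 to 139, and input counts from 4 to 13. The other 7 peaks ran from chr1:233275941-233276207 at a height of 261 to chr19:41283136-41283402 at 219.9, and neighbours in this order had overlapping counting intervals. For the tag count the interval was 417 to 502 for the first of them and 391 to 474 for the next, at chr6:33679668-33679934.

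Of the 10 highest OCAB peaks, 7 overlapped an OCT2 peak, 7 an MTA2 peak, 4 an HDAC2 peak, 1 a Mi2 peak, 8 an IKAROS peak and 7 an AIOLOS peak. Over all OCAB peaks the shares, in the same order, were 41.2, 48.8, 36.4, 16.4, 59.1 and 53%. In the highest decile they were 67.8, 57.7, 40.3, 12.8, 70.3 and 65.8%. Whether any of these counts differs from the shares was not tested, and 10 peaks are few. An overlap means at least 1 shared base pair. The peak at chr12:31479057-31479323 had no OCT2 peak, but an MTA2 peak lay with its centre 12 bp away. The peak at chr2:237126343-237126609, with a height of 234.7, had neither OCT2 nor MTA2, and IKAROS and AIOLOS peaks were centred 22 and 16 bp away. The peak at chr6:20401859-20402125, with a height of 241.6, overlapped OCT2 alone, whose centre was 26 bp away. The peak at chr16:89008433-89008699, with a height of 220.5 from 387 tags against 6 input tags, overlapped none of the 6 lists. The peak at chr19:41283136-41283402 overlapped all 6, with centres from 4 bp away for MTA2 to 222 bp away for Mi2. The highest sites were thus of several kinds by partner, although all 10 were sharply centred, with focus ratios of 0.849 to 0.975.

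Input tags set a floor under the OCAB list. The value deposited for the control in each peak corresponds to whole input tags times 0.826, within 0.05 of a tag in all 4181 peaks with input above 0, which puts the input at 21.2 M tags. The median peak had 3 input tags, the 25th percentile was 2 and the 75th percentile was 5, and the highest count was 37. In 259 peaks (5.83%) no input tag was found, and the deposited control value then stands for 0.5 of a tag. A count of 0 allows up to 3 tags, so the deposited folds of these 259 peaks are not measured ratios. Summed over all peaks, OCAB tags were 14.6 times the scaled input tags.

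The median fold over input was 12.4 (12.1 to 12.7), with quartiles of 8.48 and 23. With the 259 counts of 0 set to 3, a choice made after seeing the data, the median was 11.5. At least 10-fold over input was reached by 2814 peaks, or 63.4% of the list (Wilson interval 62.0 to 64.8%), and 299 peaks were below 6-fold. The lowest fold in the list was 4. At 100-fold or more there were 51 peaks, 24 of them with 0 input tags. The number of OCAB tags a site needed rose with its input: the lowest peak had 11 OCAB tags where input was 0, 12 where it was 1, 16 at 2, 21 at 4, 30 at 8 and 43 at 13 input tags. At 13 input tags the lowest peak was at exactly the 4-fold limit. Sites of modest OCAB binding at places with much input are therefore outside the list by its construction.

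**Figure D1:**
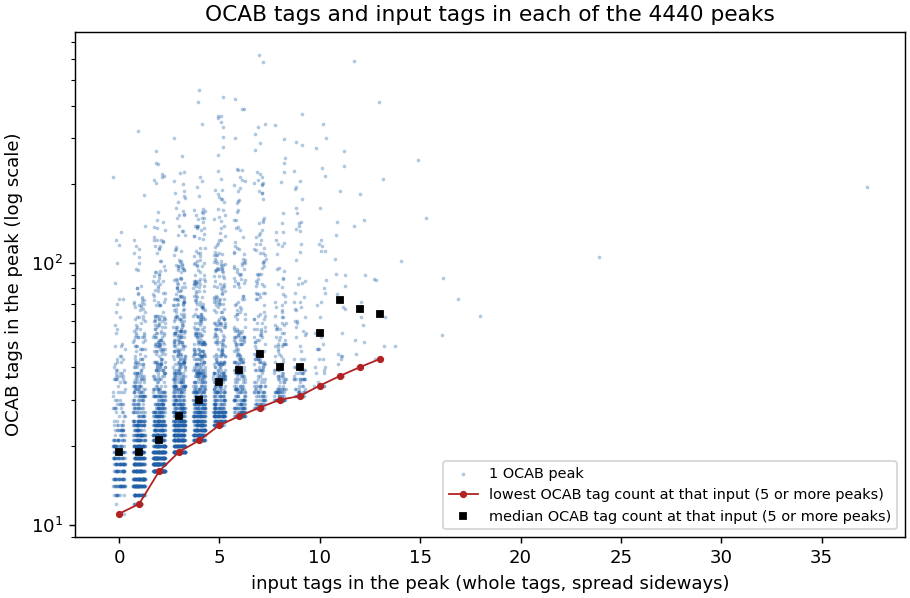
OCAB tags (vertical axis, log scale) against input tags (horizontal axis, whole tags) for the 4440 OCAB peaks, 1 point per peak; the red line joins the lowest OCAB count and black squares give the median at each input count with 5 or more peaks. The lowest count climbs with input, with 11 tags at 0 input tags and 43 at 13, and the highest peaks, up to 623 tags, sit at 4 to 13 input tags.

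The 5 peaks with the most input tags were near the limit of the list. All of them overlapped at least 1 of the 6 lists, against 72.7% of all OCAB peaks. Whether these overlaps are binding of the other proteins or go with the high input was not tested. The peak at chr11:62609092-62609358 had 195 OCAB tags against 37 input tags, a fold of 6.38 (4.47 to 9.33), and overlapped 5 of the 6 lists. The IKAROS and AIOLOS peaks there had heights of 2161 and 2171. The next were chr12:125399212-125399478 with 24 input tags and a fold of 5.30 (3.37 to 8.63), chr1:165362262-165362528 with 18 input tags and a fold of 4.24 (2.48 to 7.60), and chr4:51571-51837 with 17 input tags and a fold of 5.20 (3.04 to 9.40). The fifth, chr10:103124537-103124803, had 88 OCAB tags and 16 input tags. It also had the highest clonal fold of the list, 1.70, which is the ratio of its tags to the tags that its distinct positions would give. It overlapped HDAC2 and Mi2 peaks, centred 18 and 0 bp away, and none of the other 4 lists. Over the list the median clonal fold was 0.96, 1292 peaks (29.1%) were above 1 and 58 were above 1.2.

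The higher an OCAB peak, the more sharply its tags were centred. The focus ratio is the share of tags lying on the strand and side where a single site at the centre would put them. Its median over the list was 0.783 (0.780 to 0.788), with quartiles of 0.714 and 0.846. By deciles of height, from lowest to highest, the medians were 0.739, 0.75, 0.742, 0.75, 0.765, 0.767, 0.782, 0.807, 0.825 and 0.869. The first 4 deciles differed little, and the increase was mostly in the upper deciles. In the highest decile the interval was 0.860 to 0.876, against 0.727 to 0.75 in the lowest. Deciles hold 365 to 533 peaks because peaks of equal height were kept together. A focus ratio of 0.9 or more was found in 378 peaks (8.51%), and one below 0.6 in 192. Across the 4440 peaks the rank correlation of height with focus ratio was 0.38, a description over peaks that share 1 library.

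A few high peaks were diffuse. The lowest focus ratio in the highest decile was 0.652, at chr19:54975337-54975603, whose height of 208.5 came from 366 tags against 5 input tags. It overlapped 5 lists, all but Mi2, with the HDAC2 centre 24 bp and the OCT2 centre 104 bp away. The next lowest, 0.664 at chr2:122288090-122288356, had a height of 53.0 and no partner. These were exceptions in a decile whose 25th percentile was 0.826.

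Enrichment over the surrounding region followed height more closely than enrichment over input did. The median fold over the surroundings was 9.84 (9.64 to 10.1). By deciles of height, low to high, it was 6.21, 7, 7.59, 8.18, 8.79, 9.61, 11.3, 14.2, 18.0 and 30.7, with an increase at each step. The median fold over input, in the same order, was 16.9, 11.5, 12.1, 9.28, 8.17, 9.08, 9.99, 12.7, 18.4 and 32.6, so the smallest value was in the fifth decile. The median number of input tags in the same deciles was 1, 2, 2, 3, 4, 4, 4, 4, 4 and 5. Peaks of the lowest decile had at most 2 input tags, and 75 of the 392 (19.1%) had 0, against 6 of 444 (1.35%) in the highest decile. The lowest fold over input in the list was 26.6 at 0 input tags, 14.5 at 1, 9.69 at 2 and 6.36 at 4. Low peaks thus entered the list only with few input tags and a high fold. How far this limit shaped the folds over input of the lower deciles, and their correlation with height, was not tested. The rank correlation with height was 0.727 for the fold over the surroundings and 0.18 for the fold over input. In 2764 peaks (62.3%) the fold over the surroundings was the lower of the pair.

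HOMER's peak score, computed by the authors, followed the tag count, with a rank correlation of 0.977 and a median of 23 (23 to 24). As a percentage of the tag count its median was 75.8% in the highest decile, 83.7% in the eighth, 84.2% in the second and 92.9% in the lowest. No score was below 13, while peaks of the lowest decile held 11 to 18 tags, which bears on their high percentage. The score is not a part of the tags, since it was above the tag count in 73 peaks and equal to it in 192. In the highest peak of all, at chr19:44123994-44124260, the score was 330 for 623 tags. The score thus orders the list as height does but compresses its top.

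**Figure D2:**
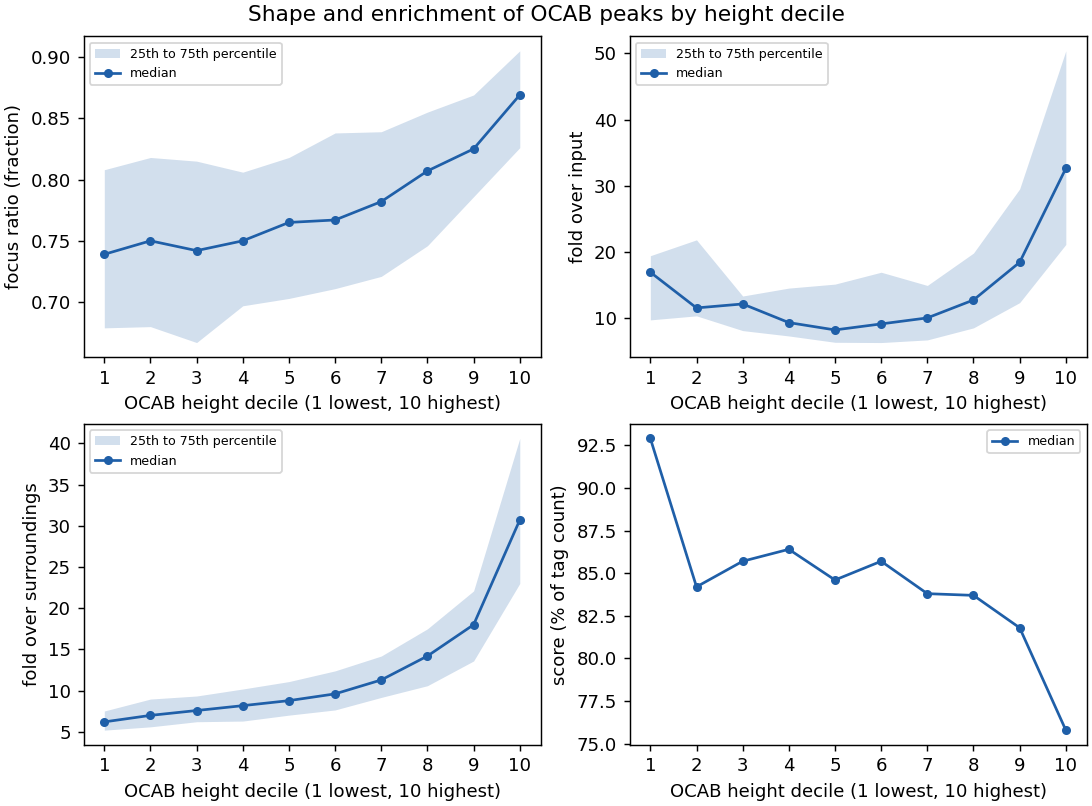
Focus ratio, fold over input, fold over the surrounding region and findPeaks score as a percentage of the tag count, by OCAB height decile from 1 (lowest) to 10 (highest); points are medians over 365 to 533 peaks and bands run from the 25th to the 75th percentile. Focus ratio reaches 0.869 and fold over the surroundings 30.7 in the highest decile, whereas fold over input dips to 8.17 in the fifth decile; the vertical axes do not start at 0.

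Of the 6 partners, OCT2 was the one tied most steadily to OCAB height. OCT2 peaks lay at 1831 OCAB peaks, 41.2% of the list (39.8 to 42.7%). By height decile, from lowest to highest, the share was 21.4, 25.9, 31.2, 40.2, 37.9, 39.5, 45.4, 47.7, 54.1 and 67.8%, higher than the decile before in 8 of 9 steps. The highest decile exceeded the lowest by 46.4 percentage points (Newcombe interval 40.1 to 52.0). In the highest decile, 301 of 444 peaks had an OCT2 peak. The difference was 48.8 points among peaks with at most 3 input tags and 51.7 with each partner list shortened to its 4000 highest peaks. With peaks ranked by fold over input in place of height it was 3.33 points, with an interval of -3.19 to 9.80 that includes 0.

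MTA2, the NuRD subunit named in the title, lay at 2167 OCAB peaks, 48.8% of the list (47.3 to 50.3%). Its shares by decile, low to high, were 39.0, 41.5, 52.1, 56.1, 50.1, 46.2, 53.6, 47.7, 43.5 and 57.7%. Most of the gain was reached by the fourth decile, the ninth decile was close to the second, and the highest decile exceeded the lowest by 18.6 points (11.9 to 25.1). HDAC2, the deacetylase of the complex, lay at 1615 OCAB peaks, 36.4% (35.0 to 37.8%). Its share was 25.8% in the lowest decile, peaked at 42.3% in the seventh and was 40.3% in the highest, a difference of 14.6 points (8.18 to 20.7) between the highest and the lowest. Among peaks with at most 3 input tags it was 8.95 points (-0.165 to 18.7), and with centres within 100 bp 4.74 points (-0.474 to 9.86), both with intervals that include 0. Mi2, the remodelling ATPase, lay at 726 OCAB peaks, 16.4% (15.3 to 17.5%). Its share was 13.3% in the lowest decile, 20.3% in the seventh and 12.8% in the highest. The highest and lowest deciles differed by -0.427 points for Mi2, with an interval of -5.08 to 4.13 that includes 0. With partner lists shortened to 4000 peaks this difference was 5.98 points (2.84 to 9.22), and with ranking by fold over input it was -8.71 points (-13.7 to -3.74), so its sign depended on the setting.

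IKAROS lay at 2623 OCAB peaks, 59.1% (57.6 to 60.5%), and AIOLOS at 2351, 53% (51.5 to 54.4%). The IKAROS share was 46.9% in the lowest decile, 59.0% in the fifth and 70.3% in the highest, and the highest exceeded the lowest by 23.3 points (16.7 to 29.7). The AIOLOS share was 39.0% in the lowest decile, 52.8% in the fifth and 65.8% in the highest, a difference of 26.7 points (20.1 to 33.1). Both had 6 steps up out of 9. The intervals of these differences, like those of MTA2 and HDAC2, lie below the OCT2 interval. The lists held 53948 IKAROS, 38101 AIOLOS, 28760 MTA2, 16125 HDAC2, 10303 Mi2 and 8129 OCT2 peaks, and a longer list can overlap more OCAB peaks. With each list shortened to its 4000 highest peaks, the share in the highest decile was 58.6% for OCT2 and 22.5% for HDAC2. It was 18.5% for IKAROS, 17.6% each for MTA2 and AIOLOS, and 8.78% for Mi2.

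**Figure D3:**
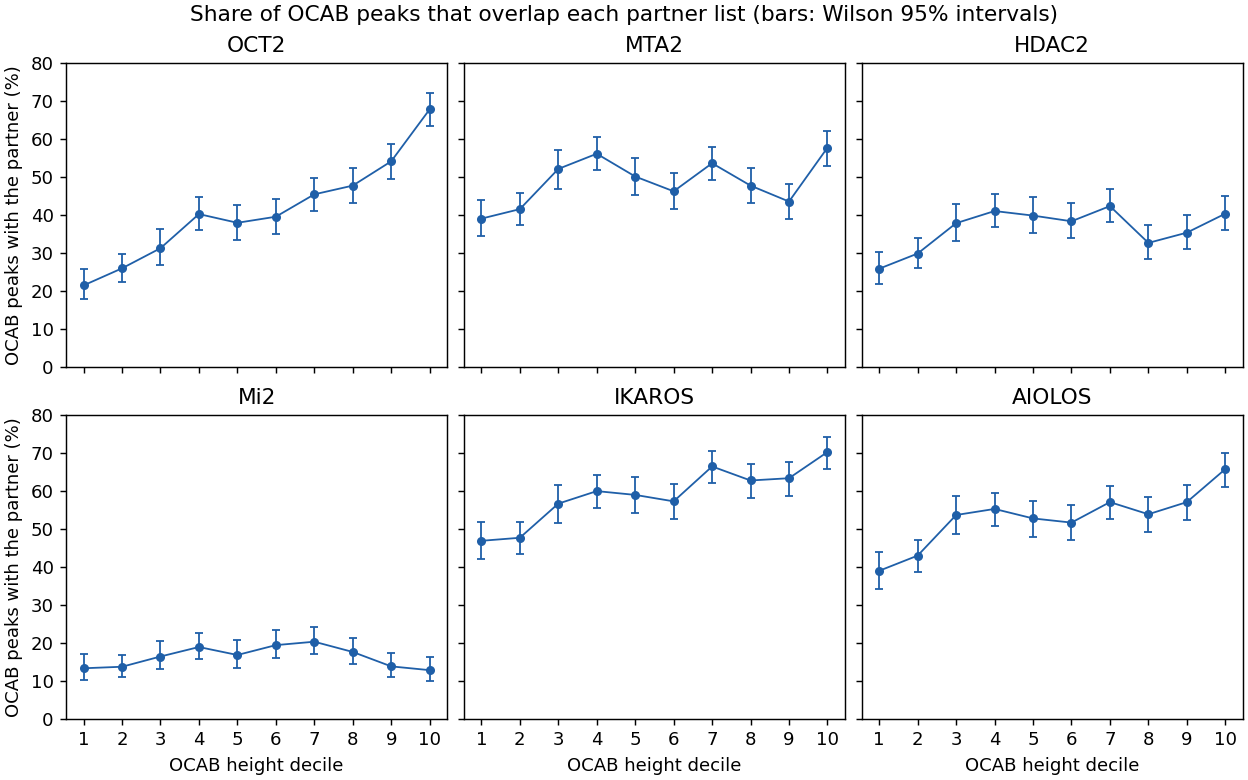
Share of OCAB peaks that overlap a peak of each of the 6 other lists by at least 1 bp (vertical axis, percent) by OCAB height decile from 1 (lowest) to 10 (highest); bars are Wilson 95% intervals over 365 to 533 peaks. The OCT2 share is 21.4% in decile 1 and 67.8% in decile 10, and the Mi2 share stays between 12.8% and 20.3%.

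At least 1 of the 6 lists lay at 3228 OCAB peaks, 72.7% (71.4 to 74.0%), with 89.0% in the highest decile against 58.7% in the lowest. Peaks low in the list thus more often had no partner of any kind. The shares were also taken among OCAB peaks that overlapped at least 1 of the other 5 lists, a restriction chosen after seeing the data. The OCT2 share was then 75.1% of 378 peaks in the highest decile against 35.1% of 225 in the lowest, a difference of 40 points (32.1 to 47.2). Under the same restriction the difference was -0.504 points (-8.27 to 7.51) for MTA2, 1.55 (-6.58 to 9.56) for HDAC2, 0.779 (-5.92 to 7.97) for IKAROS and 7.31 (-0.144 to 14.9) for AIOLOS, all with intervals that include 0. For Mi2 it was -7.93 points (-14.5 to -1.76). The restriction was not alike between partners, because the other 5 lists include OCT2 for every partner except OCT2 itself. These differences therefore do not compare OCT2 with the rest on equal terms.

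Ranking OCAB peaks by another measure turned the sign of the difference for 4 of the 6 partners. With deciles of fold over input in place of height, the MTA2 share was 40.5% in the highest decile against 70.4% in the lowest, a difference of -29.9 points (-35.9 to -23.5). The difference was -26.2 points for HDAC2, -21.4 for IKAROS, -23.6 for AIOLOS and -8.71 for Mi2. For OCT2 the share was 51.7% in the highest and 48.3% in the lowest decile. Input moved with these shares. The median peak had 1 input tag in the highest decile of fold, where 185 of 449 peaks had 0, and 6 input tags in the lowest. Over the whole list the MTA2 share was 30.9% at 0 input tags, 42.9% at 2, 54.0% at 4 and 66.8% at 8 or more. Within height deciles, MTA2, HDAC2, IKAROS and AIOLOS each had a higher share among peaks above their decile's median of input tags in all 10 deciles, OCT2 did so in 8 and Mi2 in 7. The interval of this difference was above 0 in 9 deciles for MTA2, 7 each for IKAROS and AIOLOS, 6 for HDAC2, 2 for OCT2 and 1 for Mi2, and in the highest decile it included 0 for all 6. The part of input in the shares was not tested further, and these comparisons within deciles were chosen after seeing the data.

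OCT2 had the shortest median distance to OCAB centres of the 6 partners in every height decile except the second and the fifth. Its interval lay below those of the other 5 partners only in the eighth, ninth and highest deciles, and overlapped that of MTA2 in all lower deciles. In the second the medians were 69 bp for OCT2 and 61 bp for MTA2. In the fifth they were 59 and 51 bp, with IKAROS at 58.5 bp. The median distance between the 2 centres was 33 bp (28 to 38) in the highest decile, against 49 bp (37 to 69) in the lowest. Of the overlapping OCT2 peaks, 67.4% were centred within 50 bp in the highest decile against 51.2% in the lowest, a difference of 16.3 points (4.49 to 27.9). The other 5 partners had longer distances in the highest decile than in the lowest. For MTA2 the median was 77 bp (69 to 88) in the highest decile against 61 bp (46 to 71) in the lowest, for HDAC2 102 bp (84 to 127) against 78 bp (60 to 101), and for Mi2 166 bp (120 to 198) against 106 bp (81 to 143). For IKAROS it was 76 bp (68 to 86) against 61 bp (52 to 72), and for AIOLOS 77 bp (64 to 83) against 59 bp (47 to 76). The share within 50 bp was lower in the highest decile by intervals that exclude 0 for MTA2, -10.5 points (-20.1 to -0.744), and for IKAROS, -8.81 points (-17.5 to -0.143). For HDAC2, Mi2 and AIOLOS these intervals include 0. Peaks are 274 bp wide in the OCT2 list, 250 bp in MTA2, 318 bp in HDAC2, 346 bp in Mi2, 272 bp in IKAROS and 256 bp in AIOLOS, and a wider peak can overlap from farther away.

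**Figure D4:**
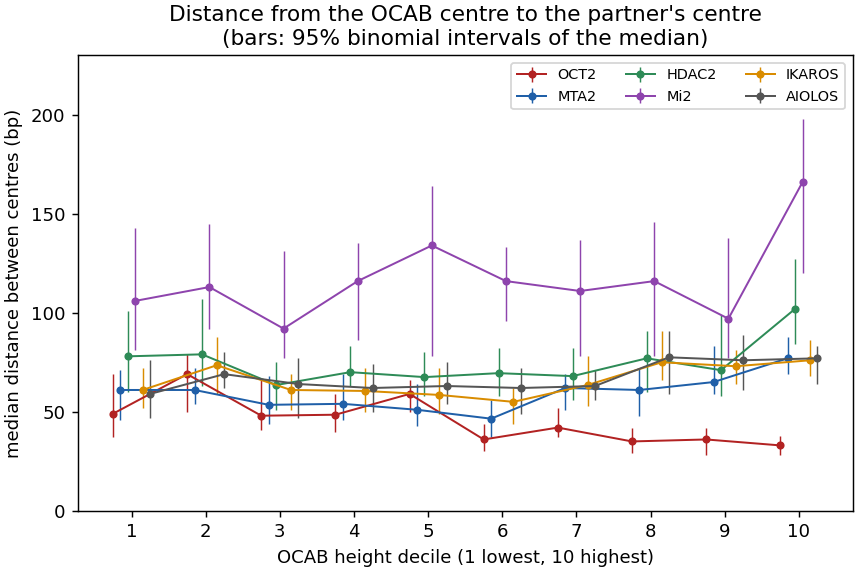
Median distance in bp between the centre of an OCAB peak and that of the overlapping partner peak, by OCAB height decile, for the 6 partner lists; bars are 95% binomial intervals of the median, and points are spread sideways. In decile 10 the OCT2 median is 33 bp and the others run from 76 bp for IKAROS to 166 bp for Mi2.

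Outside the lowest deciles, the partner peaks under OCAB were themselves high in their own lists. The median percentile of the overlapping OCT2 peak within the OCT2 list was 34.2 in the lowest OCAB decile and 79.8 in the sixth. It then fell to 71.9 in the eighth and 64.8 (60.3 to 71.9) in the ninth. In the highest it was 83.1, with an interval of 77.6 to 85.5 that covers the value of the sixth. For MTA2 it was 64.9 in the lowest decile, 89.0 in the sixth and 73.0 in the highest. HDAC2 had 55.9 in the lowest decile, 89.5 in the eighth and 80 in the highest, and Mi2 had 38.6, 79.2 in the seventh and 75.4 in the highest. IKAROS reached 89.5 and AIOLOS 86.1 in the sixth decile, against 81.1 and 74.7 in the highest. The highest OCT2 percentile was thus in the highest OCAB decile, though not clearly above the sixth, and those of the other 5 were in the sixth to eighth. In the ninth decile each partner was below its highest value.

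OCAB peaks with no partner were lower, and peaks with more partners had more input tags and lower focus ratios. The mean number of partners was 3.15 in the highest decile against 1.85 in the lowest. Peaks with 0 partners numbered 1212 (27.3%) and had a median height of 13.7 (13.1 to 14.2). With 1 to 6 partners the median height was between 16.5 and 17.1 at every number. The median focus ratio, from 0 partners to 6, was 0.8, 0.8, 0.792, 0.789, 0.775, 0.761 and 0.75, and the median number of input tags was 2, 3, 3, 4, 4, 4 and 4. The focus ratio thus ran the other way than with height: peaks shared by more proteins were less sharply centred. By single partner, the median focus ratio was 0.767 with MTA2 and 0.8 without it, 0.759 with HDAC2 and 0.799 without it, and 0.780 with OCT2 and 0.786 without it.

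The commonest partner sets changed along the list. Over all peaks, 1212 had none of the 6, 593 (13.4%) had all but Mi2, 382 (8.60%) had all 6 and 240 had MTA2, IKAROS and AIOLOS alone. In the highest decile, the set of all but Mi2 came first with 84 of 444 peaks (18.9%), followed by OCT2, MTA2, IKAROS and AIOLOS without either of the other 2 with 57 (12.8%), and by no partner with 49. In the lowest decile, no partner came first with 162 of 392 peaks (41.3%), and all but Mi2 had 32 (8.16%). All 6 lists met most often in the seventh decile, at 12.9% of its peaks. The share with all 6 was 5.86% in the highest decile against 4.59% in the lowest, a difference of 1.26 points (-1.87 to 4.34).

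Some of the highest OCAB sites stood alone. After chr16:89008433-89008699, the highest peaks with no partner were chr12:99038936-99039202 with a height of 182.3 from 320 tags against 1 input tag, chr17:41465575-41465841 with a height of 143 from 251 tags against 8, chr16:84697428-84697694 with 137.3 from 241 tags against 8, and chr11:695357-695623 with 114 from 200 tags against 7. Their focus ratios were 0.724 to 0.938, and their clonal folds 0.82 to 1.01. At the other end, the highest peaks with all 6 partners were, after chr19:41283136-41283402, chr19:50922860-50923126 with a height of 192.6, chr21:39073076-39073342 with 171.5, chr19:10353460-10353726 with 130.5 and chr16:11422366-11422632 with 117.4. In these 5 peaks the OCT2 centre lay 5 to 40 bp from the OCAB centre, whereas the Mi2 centre lay 56 to 273 bp away.

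OCAB peaks were mostly far apart. Over 4415 gaps between neighbouring centres on the same chromosome, the median distance was 250 kb, with quartiles of 70.9 and 699 kb. The 90th percentile was 1.62 Mb and the shortest gap was 590 bp. A neighbour within 10 kb was found for 485 peaks, or 10.9% (10.0 to 11.9%). Within 1 kb there were 52 such peaks (1.17%), and within 100 kb 2181 (49.1%). By height decile, low to high, the share with a neighbour within 10 kb was 4.34, 8.26, 9.04, 8.45, 11.8, 12.5, 11.3, 14.2, 18.2 and 11.3%, so the ninth decile, not the highest, had the most.

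Peaks with a neighbour were somewhat higher but stood out less from their surroundings. Their median height was 18.2 (17.1 to 19.4), against 15.4 (15.4 to 16.0) for the 3955 peaks without a neighbour. The median fold over the surroundings was 7.66 (7.33 to 8.18) with a neighbour and 10.1 (9.89 to 10.3) without. How far the surrounding region reached in the OCAB list is not given, and whether it took in the neighbour's tags was not tested. The focus ratio was 0.778 with a neighbour and 0.784 without. HDAC2 lay at 40.8% of peaks with a neighbour and 35.8% of those without, a difference of 5.00 points (0.454 to 9.67). For OCT2 the shares were 45.4% and 40.7%, a difference of 4.63 points whose interval, -0.0122 to 9.33, includes 0. The interval also included 0 for MTA2, 0.761 points (-3.93 to 5.46), and Mi2, -2.85 points (-5.88 to 0.693). The same held for IKAROS, -0.121 points (-4.81 to 4.44), and AIOLOS, 3.75 points (-0.963 to 8.37). The share with no partner was 27.0% with a neighbour and 27.3% without.

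Clusters, taken as runs of peaks with gaps of at most 10 kb, were mostly pairs. There were 219 pairs, 13 clusters of 3 and 2 clusters of 4, and the other 3955 peaks were single. Pairs had a median span of 4638 bp, and the higher peak was 1.58 times the lower at the median. In 61 pairs (27.9%) it was more than 2 times the lower and in 10 more than 5 times. Both peaks were in the highest decile in 4 pairs and 1 of them in 38. Of the 15 clusters of 3 or more, which hold 47 peaks, 3 had a peak of the highest decile. Peaks of the highest decile were about as often clustered as others: 11.3% had a neighbour within 10 kb, against 10.9% of all peaks.

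The 2 clusters of 4 lay on chromosomes 8 and 22, with heights of 9.12 to 40.5, outside the highest decile. On chromosome 8, between 35418471 and 35432330, heights along the chromosome were 29.1, 40.5, 20.5 and 9.12 over 13859 bp. The second of these overlapped OCT2 alone, 11 bp away, the third had all partners but Mi2, and the first and last had none. On chromosome 22, between 22549950 and 22573089, heights were 18.8, 23.4, 11.4 and 14.8 over 23139 bp, and the first pair had partners while the second pair had none. Another cluster on chromosome 22, between 23154068 and 23165336, had 3 peaks of height 66.7, 35.3 and 39.3.

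The second highest OCAB peak of the list belonged to a cluster. On chromosome 17, between 62003005 and 62009886, peaks of height 24.5, 63.2 and 337.3 followed one another over 6881 bp, and the last held 79.4% of their summed height. The first and last overlapped 5 lists, all but Mi2. The middle peak, with 111 tags against 10 input tags, overlapped none. A cluster on chromosome 18, between 46455177 and 46467382, was also dominated by 1 peak, with heights of 46.7, 10.8 and 9.12.

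**Figure D5:**
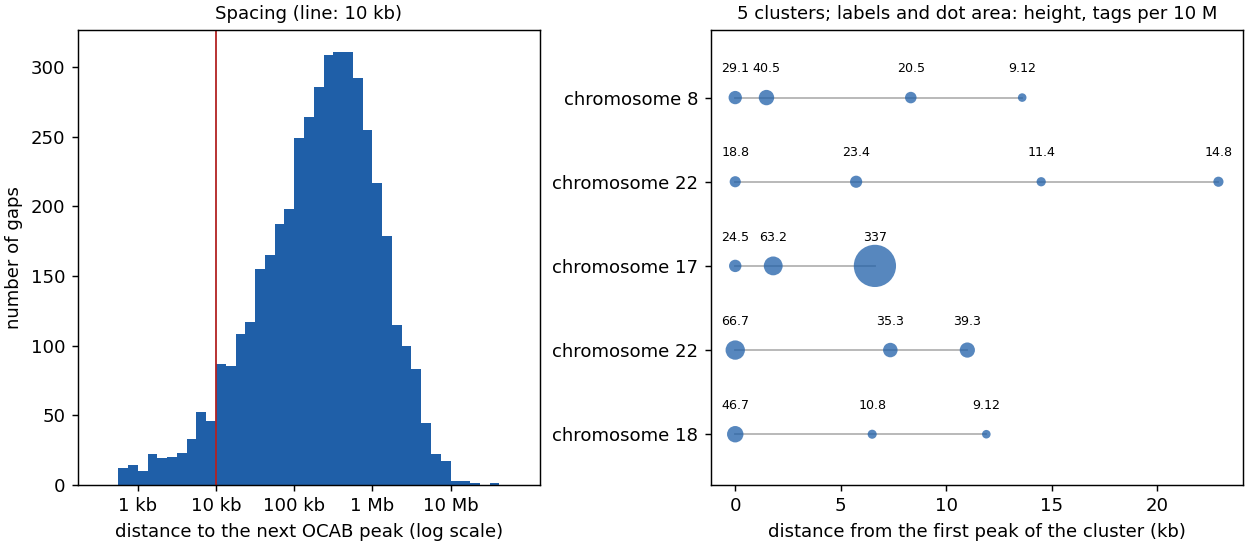
Left, distances between neighbouring OCAB peak centres (horizontal axis, log scale; vertical axis, number of gaps; red line at 10 kb). Right, the 5 clusters described, with distance in kb from the first peak, and height in tags per 10 M as dot area and label; the gap distribution has its median at 250 kb, and the chromosome 17 cluster ends in a peak of 337 beside peaks of 24.5 and 63.2.

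OCAB peaks were unevenly spread over the chromosomes. Over the stretch between the first and last peak, chromosome 22 had 39.6 peaks per 10 Mb, chromosome 19 had 37.3 and chromosome 17 had 27.8, against 9.6 on chromosome 4 and 4.01 on chromosome X. Size alone did not order them, since chromosome 21 had 19.2, chromosome 1 had 19.5 and chromosome 18 had 11.6. Chromosome 1 had the most peaks, 481. The median heights on chromosomes 19 and 22 were 18.2 (16.5 to 20.5) and 18.5 (16.5 to 20.5), against 14.2 (12.5 to 16.0) on chromosome 4. Density and height did not always go together. Chromosome 20, with 22.3 peaks per 10 Mb, had a median of 14.8 (13.1 to 16.0), and chromosome 11, with 14.6, had 17.7 (16.0 to 20.5). Of the chromosome 19 peaks 17.6% (13.1 to 23.2%) were in the highest decile, and 18.1% (13.5 to 23.7%) had no partner. On chromosome 4, 8.29% (5.09 to 13.2%) were in the highest decile and 42.5% (35.6 to 49.8%) had no partner. Copy number of these chromosomes in the line was not measured.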

How the data were processed

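ChIP-seq peaks of 697 cells were analysed as deposited. Per the submitters' processing notes, the tools on hg19 included HOMER 4.9.1, Bowtie2 2.3.2.2 and CASAVA, in version 1.8.2 except for HDAC2, whose version was 1.4. What settings the OCAB peaks were called with is not given in the sources used here. In the deposited OCAB list, the signal columns are tags in the peak per 10 M tags, with input tags scaled to the OCAB library. The count of tags per peak, the fraction called focus ratio, the findPeaks score and the ratio columns (fold over input, over surroundings and clonal fold) are also the authors' values. The deposited p-value columns reached 9.49e-11 over input and 6.92e-05 over the surroundings, and were used for these limits alone. The lowest fold over input and over the surroundings was 4, so no lower site can appear.

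Depth was taken from tags over height, and whole input tags from the scaled control. Peaks were ranked in deciles of height, with ties together. Shares have Wilson intervals, differences of shares Newcombe intervals, medians binomial order-statistic intervals, and folds of single peaks exact binomial intervals, all at 95%. Peaks of 1 library are not replicates. Named peaks are, by rule, the 10 highest, the 5 highest with no partner and with all 6, the 5 with most input, with highest clonal fold and with lowest focus ratio in the highest decile, and the 5 largest clusters by number of peaks and then summed height; not all are described. Peak lists, members and comparisons were chosen with earlier results of these data known. Interval, overlap and cluster code was tested on simulated peaks. Alternatives changed the overlap rule, the ranking, the fold minimum, list lengths and gap lengths. No genome of hg19 was used here, so peaks have no gene and no sequence. Python 3.11.15, numpy 2.4.6, pandas 2.3.3, scipy 1.17.1 and matplotlib 3.10.9 were used.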

Additional observations from a re-analysis of the deposited data

How the results depend on the processing

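No paired analysis was possible because each antibody had 1 library. Of 77 alternative values for 16 results, 41 stayed within the interval or the limits of the reported value. The differences between the highest and the lowest height decile, in percentage points, moved as follows. With centres within 100 bp they were 8.29 for MTA2, 4.74 (-0.474 to 9.86) for HDAC2, 11.3 for IKAROS and 14.7 for AIOLOS. With 0.5 of the OCAB peak covered they were 14.6 for IKAROS and 17.0 for AIOLOS. HDAC2, at 8.37, stayed within its reported interval of 8.18 to 20.7. With deciles by fold over input they were 3.33 for OCT2 and -8.71 for Mi2, and they changed sign to -29.9 for MTA2, -26.2 for HDAC2, -21.4 for IKAROS and -23.6 for AIOLOS. With partner lists of 4000 peaks they were 10.4 for MTA2, 5.98 (2.84 to 9.22) for Mi2, 12.9 for IKAROS, 11.4 for AIOLOS and 47.4 for at least 1 partner. Among peaks with at most 3 input tags MTA2 had 11.4. HDAC2 had 8.95 (-0.165 to 18.7), which is within its reported interval but with an interval that includes 0. Among peaks with at least 1 of the other 5 lists, chosen after seeing the data, OCT2 had 40, HDAC2 1.55, Mi2 -7.93, IKAROS 0.779 and AIOLOS 7.31, and MTA2 changed sign to -0.504. The cause of these changes was not tested. At 8-fold or more over input, 3475 peaks were left, with a median focus ratio of 0.793, 2 input tags, 7.97% with a neighbour within 10 kb, 4 clusters of 3 or more and, added after seeing the data, a fold over the surroundings of 10.5. At least 8-fold held for 78.3% of peaks and at least 15-fold for 41.7%. The median fold over input was 11.5 with 0 input tags set to 3, also added later. A neighbour within 5 kb was found for 6.22% and within 50 kb for 34.5%, with 2 and 171 clusters of 3 or more. Folds of peaks with few input tags are imprecise: at 7 input tags the highest peak had an interval of 52.0 to 269.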

Other observations

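The fold over the surroundings exceeded 100 in 10 peaks, a group chosen after the values were seen, and 7 of them were in the highest decile. The other 3 were in the third, the sixth and the ninth decile of height. The peak at chr22:16166488-16166754 had 29 tags against 2 input tags, a fold of 529 over its surroundings and 17.6 over input. The peak at chr2:89378238-89378504 had 61 tags against 2 input tags, with 131-fold over its surroundings, and the peak at chr2:89619803-89620069 had 21 tags against 0, with 128-fold. Their focus ratios were 0.967, 0.968 and 0.955, and none overlapped a peak of the other 6 lists. The widest gap between OCAB peaks, 33.0 Mb, lay on chromosome 9 between 38672754 and 71627937.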
